A study of Mus musculus with 12 samples.

Results

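The histone cluster genes encode the linker histone H1 and the core histones H2A, H2B, H3 and H4, and lie in the Hist1, Hist2, Hist3 and Hist4 clusters of the mouse genome. Members were taken as all protein-coding genes whose GENCODE M21 symbol begins with Hist1h, Hist2h, Hist3h or Hist4h, which gave 67 of the 54146 gene identifiers measured. Of these, 54 lie in the Hist1 cluster (chromosome 13, 21715763 to 23934851, GRCm38), 10 in Hist2 (chromosome 3, 96219865 to 96270132), 2 in Hist3 (chromosome 11, 58948920 to 58956830) and 1 in Hist4 (chromosome 6, 136801553 to 136804415). By class, 6 encode H1, 18 H2A, 18 H2B, 12 H3 and 13 H4. A filter on low counts (edgeR's filterByExpr) was passed by 17 of the 67, which could be tested, and the other 50 are described by their levels.

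RNA was sequenced from BMEL cells, a line of bipotential mouse embryonic liver progenitors that can form hepatocytes and bile duct cells, in 4 groups of 3 samples. The groups were Cdk8 -/- cells transformed by H-RasG12V (Cdk8 knockout below), Cdk19 -/- cells transformed by H-RasG12V (Cdk19 knockout), wild-type cells transformed by H-RasG12V (RasG12V) and wild-type cells without transformation (untransformed). H-RasG12V is a form of Ras that stays active, and Cdk8 and Cdk19 are closely related kinases of the Mediator complex. All 4 groups come from a line isolated from a mouse with floxed Cdk8 alleles, and all were grown on collagen with serum, insulin, IGFII and EGF and collected while growing exponentially. How the knockouts were made, and whether each is 1 clone, is not given in the sources used here. No label ties the samples of a group to separate cultures, so the p-values rest on a spread between samples that may be technical.

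Most histone cluster genes are made when DNA is copied in S phase, and their mRNAs are unlike others. They lack introns and a poly(A) tail and end in a short stem-loop, which is bound by the protein Slbp and cut by a complex that holds the U7 RNA. Npat, a substrate of cyclin E and Cdk2, switches on their transcription. In human cells, some cluster genes also make longer mRNAs that run past the stem-loop and carry a poly(A) tail. Replacement variants such as H3f3b and H1f0 lie outside the clusters, carry a poly(A) tail and are made through the cell cycle.

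The stem-loop was searched as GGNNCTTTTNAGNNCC, on the strand of the transcript, in the GENCODE M21 transcripts of GRCm38. It was present in 44 of the 67 members (65.7%) and in 34 of 21884 other protein-coding genes (0.155%). The 6 forms found are shown because they divide the members by class, with the 4 letters of the loop in capitals. The first was present in 26 members, the next in 7, and the others, in the order printed, in 6, 2, 2 and 1.
H1, H2A, H2B and H3 form: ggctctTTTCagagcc
H4 form: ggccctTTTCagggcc
H1, H2B and H3 form: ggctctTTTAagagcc
second H4 form: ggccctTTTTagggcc
last H4 form: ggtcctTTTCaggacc
Hist2h2ac form: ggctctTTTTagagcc

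The members could be sorted by where their annotated transcript ends. In 22 members the transcript runs more than 100 bases past the stem-loop (long tail), and in 22 it ends within 100 bases of it. A further 4 have no stem-loop and over 1000 bases of exon, and 19 have none and are shorter. Levels are given as CPM (counts scaled to library size by TMM), and as CPM per kb of exon where genes are compared with each other. Of the long-tail genes 12 of 22 passed the filter, against 1 of 22 that end near the stem-loop. The filter acts on counts, which grow with exon length, and the median length was 1255 bases against 483.5 bases. The median level was 0.258 CPM per kb over the 22 long-tail genes and 0.0665 CPM per kb over the 22 that end near the stem-loop. It was 2.11 CPM per kb over the 4 long genes with no stem-loop and 0.0537 CPM per kb over the 19 short ones. None of these 4 lay near their median: Hist1h2bc stood at 6.35 and Hist2h2be at 4.22 CPM per kb, and Hist1h2bq and Hist1h2br at 0. Long-tail genes took 55.5% of all histone counts and the long genes with no stem-loop 37.8%, while those that end near the stem-loop took 2.27%.

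**Figure D1:**
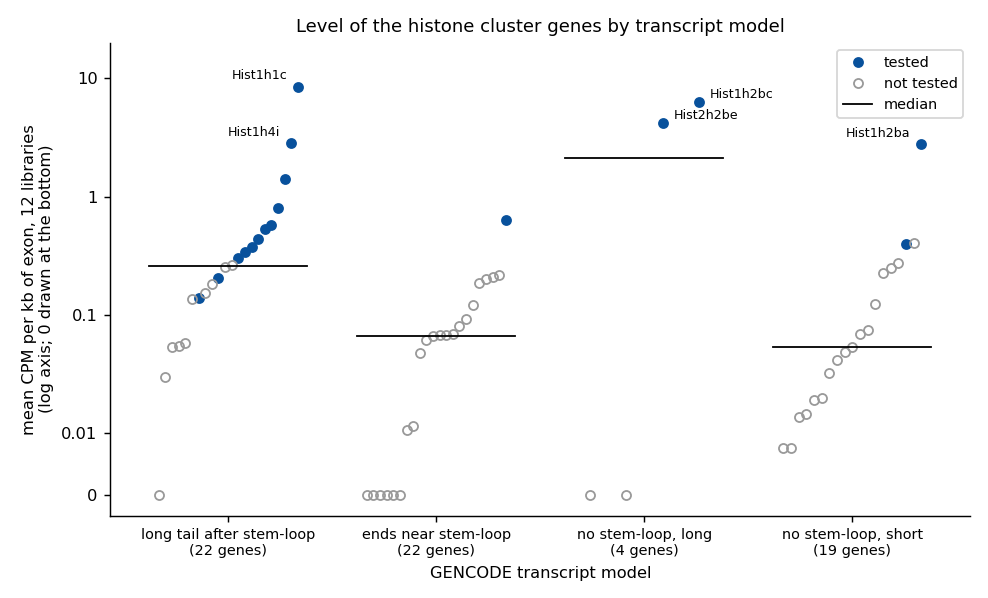
Mean level of each of the 67 histone cluster genes over 12 libraries, in CPM per kb of exon on a log axis, by the end of the annotated transcript; filled points passed the filter on low counts, open points did not, and lines are medians. The highest points, Hist1h1c, Hist1h2bc and Hist2h2be, stand at 8.50, 6.35 and 4.22 CPM per kb, and 9 genes are at 0.

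Uniqueness of sequence moved with the same division. STAR counted reads that map to 1 place, and many histone genes are near copies of each other, so reads of a copied stretch are not in the counts. For each member, the share of 100-base stretches of its longest transcript found in no other gene, on either strand, was computed. Its median was 85.4% over long-tail genes and 45.5% over those that end near the stem-loop. Genes annotated over the same place also lower this share, and 7 members have such an overlap on the same strand and 21 on the opposite strand. A low share thus need not mean lost reads: Hist2h2bb, at 0% unique, had 56 counts. The 9 members with 0 counts in all 12 libraries were at most 19.3% unique. These are Hist1h2bq, Hist1h2ao, Hist1h4m, Hist1h4n, Hist1h2ap, Hist1h2br, Hist2h2aa2, Hist2h2aa1 and Hist2h3c1, and their counts cannot tell a gene that is off from one whose reads are shared. A count of 0 allows up to 3 counts, which is between 0.0813 and 0.121 CPM in 1 library. Of the 17 tested members 16 were at least 50% unique, and so were 23 of the 50 untested ones. Among members at least 50% unique at 50 bases, a limit added after the data were seen, the median was 0.265 CPM per kb for 19 long-tail genes and 0.0917 CPM per kb for 7 that end near the stem-loop. Among the 8 members at least 90% unique at 50 bases, Hist1h1c, Hist2h2be, Hist1h1d, Hist1h1a and Hist2h4 were tested, and Hist1h1b, Hist1h1t and Hist4h4 were not. Hist1h1b, a replication-dependent H1 whose transcripts are 100% unique, gave 73 counts over 12 libraries.

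Summed over all 67 members, histone counts came to 46.5 ± 2.84 CPM in Cdk8 knockout cells, 47.1 ± 5.04 in Cdk19 knockout cells, 54 ± 11.8 in RasG12V cells and 46.4 ± 1.13 in untransformed cells (SD, n = 3 each). In single libraries the sum was 46.4, 49.4 and 43.8 CPM in Cdk8 knockout cells, 51.6, 41.7 and 48 CPM in Cdk19 knockout cells, 50.8, 44.2 and 67 CPM in RasG12V cells, and 45.4, 47.6 and 46.2 CPM in untransformed cells. The groups overlap, and RasG12V replicate 3 is the highest of the 12 libraries. These sums are between 0.00415% and 0.00668% of gene counts. Only 5 members reached at least 1 CPM in every library, and 56 stayed under 1 CPM in every library. The median of 17408 protein-coding genes with a count was 2.25 CPM per kb, and 5 members lay above it, namely Hist1h1c, Hist1h2bc, Hist2h2be, Hist1h4i and Hist1h2ba.

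For scale, some other genes chosen after their values were seen can be set beside Hist1h1c at 8.50 CPM per kb. Rrm2, the small subunit of ribonucleotide reductase, averaged 188 CPM per kb, and Pcna, the sliding clamp of DNA replication, 67.7 CPM per kb. The variants H1f0 and H3f3b averaged 305 and 253 CPM per kb, while 5 of the 16 variants outside the clusters did not pass the filter on low counts. Short RNAs that lack a poly(A) tail differed: Rn7sk averaged 10.8 CPM per kb, above Hist1h1c, and Terc 0.637 CPM per kb. Both annotated entries of Rmrp had no counts. Where such entries overlap on the same strand, reads are ambiguous and uncounted, so this does not show that the RNA is absent. In single libraries Rn7sk lay between 1.64 and 10.2 CPM and Terc between 0.0913 and 0.535 CPM. These 3 RNAs were chosen after their values were seen. The labels name rRNA-depleted total RNA as the material and a TruSeq RNA kit for the libraries. The part of library preparation in the low levels of the cluster genes was not tested.

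A few members carried most of the histone counts. Hist1h1c (H1), Hist2h2be (H2B), Hist1h2bc (H2B) and Hist3h2a (H2A) held 4908, 4025, 2681 and 1103 of the 17739 counts. Together they made 71.7% of them, and between 62.5% and 82.8% in single libraries. The other 63 genes summed to 16.3, 16.9 and 13.8 CPM in Cdk8 knockout cells, 19.4, 12.8 and 14 CPM in Cdk19 knockout cells, 17.5, 14.3 and 14.3 CPM in RasG12V cells, and 7.81, 10.5 and 8.56 CPM in untransformed cells. All 9 transformed libraries lay above all 3 untransformed ones, which was so for 11.6% of single genes tested. The 63 were set by taking out the 4 genes with the most counts in these data, Hist1h1c among them. They include the 4 genes called below. The 4 leading genes made 66.4 ± 1.82% of histone counts in Cdk8 knockout cells, 67.6 ± 4.50% in Cdk19 knockout cells and 70.6 ± 7.10% in RasG12V cells, against 80.7 ± 2.52% in untransformed cells (SD, n = 3 each). The 50 genes too low to test summed to 2.79 ± 0.471 CPM in Cdk8 knockout cells, 2.92 ± 0.889 in Cdk19 knockout cells, 3.03 ± 0.537 in RasG12V cells and 1.87 ± 0.344 in untransformed cells. Here RasG12V libraries, at 3.28, 3.39 and 2.41 CPM, were above the untransformed ones, at 1.60, 2.26 and 1.76 CPM, while the lowest library of each knockout group lay within the untransformed range. These sums were not tested, and they pool genes of unlike level.

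**Figure D2:**
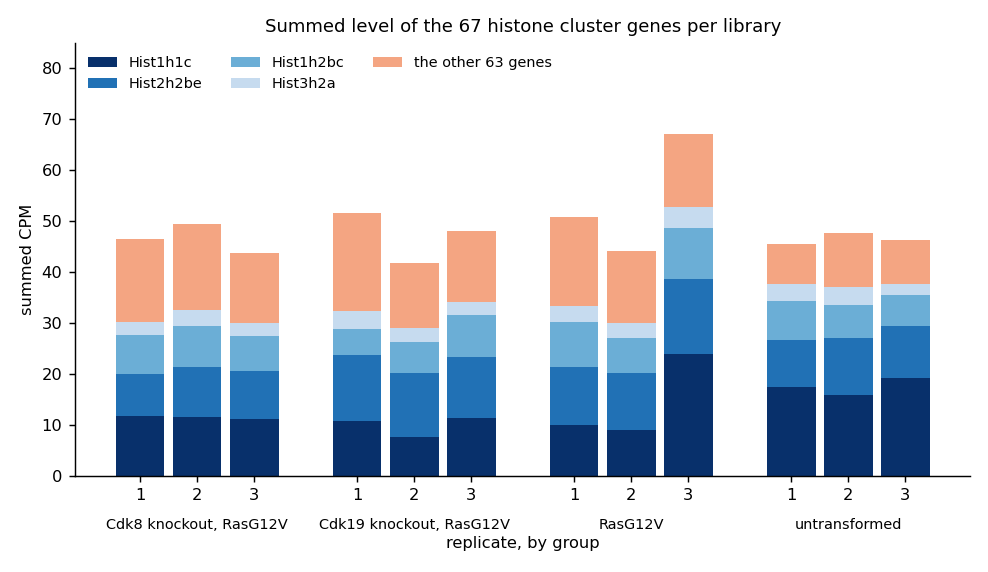
Summed CPM of the 67 histone cluster genes in each of the 12 libraries, split into the 4 members with the most counts (blue) and the other 63 (orange). The orange part lies between 12.8 and 19.4 CPM in the 9 transformed libraries and between 7.81 and 10.5 CPM in the untransformed ones, and RasG12V replicate 3 has the tallest bar, at 67 CPM.

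Libraries held 24823560 to 36879661 gene counts. RasG12V replicate 3 stood apart: the mean chi-square per gene was 93.5 and 85.4 between it and RasG12V replicates 1 and 2, against 4.61 between those 2. Untransformed replicate 3 was also less like its group, at 56 and 56.9 against 8.17, and results below are also given without both libraries where they change. Hras stood between 402 and 456 CPM in the knockout libraries, between 313 and 537 CPM in RasG12V cells and between 40.7 and 57.5 CPM in untransformed cells. Cdk8 stood at 41.4, 43.8 and 43.3 CPM in Cdk8 knockout cells, 56.3, 56.4 and 50.9 CPM in RasG12V cells and 49.6, 45.7 and 43.7 CPM in untransformed cells, and the knockout and untransformed ranges overlap. Cdk19 stood at 51.2, 45 and 53.1 CPM in Cdk19 knockout cells, 64.7, 67.2 and 93.6 CPM in RasG12V cells and 88.3, 83.4 and 91.7 CPM in untransformed cells, and gene-level counts do not show whether the deleted parts are missing. Of 12 markers of hepatic progenitors and epithelium, 10 averaged at least 1 CPM, with Epcam and Cldn6 below it, as did 3 of 5 hepatocyte markers, with Alb and Fgb below it. None of 6 stellate cell and fibroblast, 4 endothelial, 3 erythroid or 4 germ cell markers did, and 1 of 5 macrophage markers did. In such bulk samples, fewer cells with an mRNA and less of it per cell cannot be told apart.

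The first comparison asks what transformation by H-RasG12V changes. In RasG12V against untransformed cells, 4 of 17 tested members rose, Hist1h1e, Hist1h2ac, Hist1h2bh and Hist1h2be, and 0 fell at an adjusted p under 0.05 in edgeR's quasi-likelihood test. Over all 14283 genes tested, 11.9% rose and 11.5% fell. At an unadjusted p under 0.05 there were 5 members, the fifth being Hist2h2be, and DESeq2 and limma-voom each called 4 members higher and 0 lower. The median log2 fold change was 0.61 over the 17 members and -0.00040 over all genes. Above 0 were 16 of the 17, beside 49.9% of all genes. The filter used all 4 groups, and Hist3h2ba, Hist1h4h, Hist1h3d and Hist1h1a passed it through transformed libraries alone. Such a filter favours values above 0, so neither figure is read as a shared rise. With only the 2 groups compared, 13 members passed. With RasG12V replicate 3 and untransformed replicate 3 left out, 3 of 18 tested members rose and 1 fell, where 19.0% of genes rose and 21% fell. Then 14 of the 18 were above 0, beside 49.7% of all genes.

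Hist1h1e (chromosome 13, 23620629 to 23622558, minus strand), a somatic linker histone, stood at 1.31, 1.35 and 1.57 CPM in RasG12V cells, against 0.213, 0.340 and 0.626 CPM in untransformed cells. The libraries did not overlap. The log2 fold change (1.81, SE 0.36, adjusted p = 0.00313, edgeR) kept its call in all 22 alternatives. Hist1h1e shares a stretch of the same strand with Hist1h2be and Gm11398. Reads that fall in a shared stretch are ambiguous and stay out of the counts of these genes.

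Hist1h2ac, an H2A gene (chromosome 13, 23681467 to 23683948, minus strand), stood at 1.31, 1.06 and 0.422 CPM in RasG12V cells, against 0.249, 0.371 and 0.358 CPM in untransformed cells. RasG12V replicate 3 is the low one, just above the untransformed range. It rose (log2 fold change 1.47, SE 0.39, adjusted p = 0.0157, edgeR), also without both replicates 3 (1.90, SE 0.37, adjusted p = 0.000397). It was not called without RasG12V replicate 1 (1.14, adjusted p = 0.0731), without untransformed replicate 1 (1.31, adjusted p = 0.0647) or with only these 2 groups in the fit (1.48, adjusted p = 0.0915). Its divergent neighbour Hist1h2bc (23684199 to 23692908, plus strand) starts 251 bases away and encodes H2B. Hist1h2bc stood at 8.89, 6.91 and 9.92 CPM in RasG12V cells, against 7.74, 6.56 and 6.11 CPM in untransformed cells, which overlap (log2 fold change 0.34, SE 0.19, adjusted p = 0.225). The difference between the 2 neighbours was not tested.

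The H2B gene Hist1h2bh (chromosome 13, 23541714 to 23543392, minus strand) stood at 1.28, 2.25 and 1.75 CPM in RasG12V cells, against 0.959, 0.959 and 0.626 CPM in untransformed cells. The groups did not overlap, and the gene rose (log2 fold change 1.05, SE 0.30, adjusted p = 0.0233, edgeR). It lost its call without RasG12V replicate 2 (0.86, adjusted p = 0.0882), without untransformed replicate 3 (0.87, adjusted p = 0.0664), without both replicates 3 (0.85, adjusted p = 0.0520) and with only these 2 groups in the fit (1.06, adjusted p = 0.0752). Hist1h2be, another H2B gene, whose annotated exons spread from 23583670 to 23621124, stood at 1.60, 1.55 and 1.96 CPM in RasG12V cells, against 0.746, 0.835 and 1.37 CPM in untransformed cells. Its groups did not overlap either. Its rise (log2 fold change 0.79, SE 0.26, adjusted p = 0.0483, edgeR) was near the threshold and was called in 9 of 22 alternatives.

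**Figure D3:**
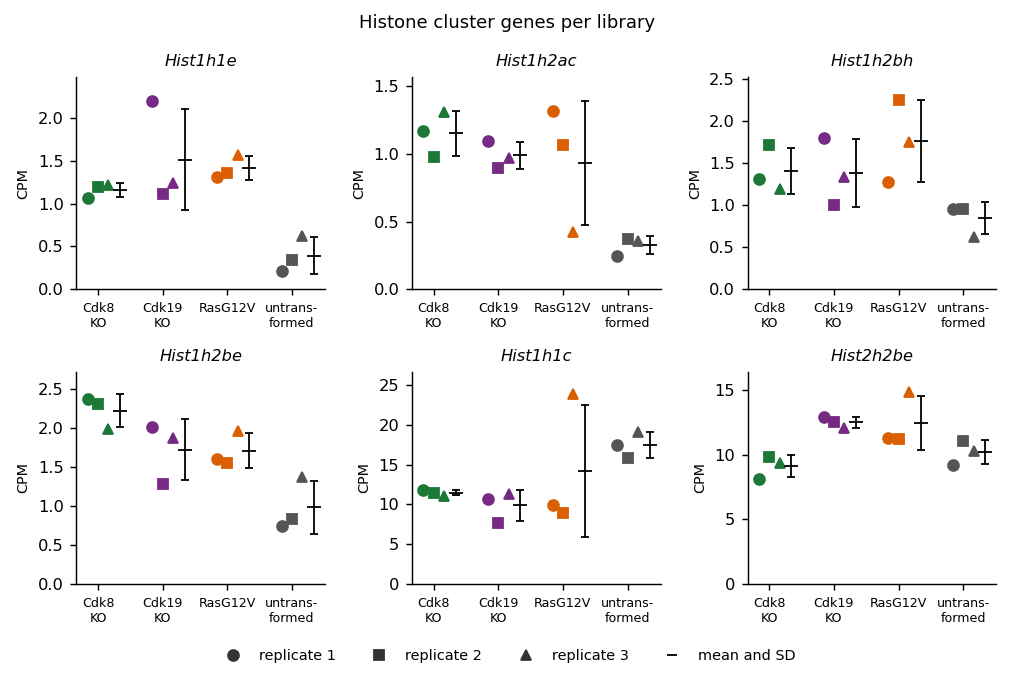
Level in CPM of 6 histone cluster genes in each library by group, with the mean and SD of 3 libraries beside the points; marker shapes give the replicate. For Hist1h1e, Hist1h2ac, Hist1h2bh and Hist1h2be the untransformed libraries lie below all RasG12V ones, while Hist1h1c shows RasG12V replicate 3 at 23.8 CPM, above the other 11 libraries.

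In 6 tested members all RasG12V libraries were above all untransformed ones, which was so for 16.2% of all genes tested. These were the 4 called genes, Hist1h4h and Hist2h2be, of which Hist1h4h passed the filter through transformed libraries alone. In 3 of them, Hist1h1e, Hist1h2ac and Hist1h2bh, all 9 transformed libraries, knockouts included, were above the untransformed ones, which was so for 11.6% of all genes tested.

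The promoters of these 3 genes and of Hist1h1c, the member with the most counts, are shown from RefSeq (GRCm38.p6, 250 bases before to 50 after the annotated start). Their windows are chr13:23622509-23622808 (minus) for Hist1h1e, chr13:23683910-23684209 (minus) for Hist1h2ac, chr13:23543395-23543694 (minus) for Hist1h2bh and chr13:23738557-23738856 (plus) for Hist1h1c. Capitals mark 4 motifs on either strand: the TATA box (letters TATAAA), the CCAAT box (letters CCAAT), the octamer (letters ATTTGCAT) and the H1 box (letters AAACACA). The window of Hist1h2ac also holds the start of Hist1h2bc.
Hist1h1e promoter: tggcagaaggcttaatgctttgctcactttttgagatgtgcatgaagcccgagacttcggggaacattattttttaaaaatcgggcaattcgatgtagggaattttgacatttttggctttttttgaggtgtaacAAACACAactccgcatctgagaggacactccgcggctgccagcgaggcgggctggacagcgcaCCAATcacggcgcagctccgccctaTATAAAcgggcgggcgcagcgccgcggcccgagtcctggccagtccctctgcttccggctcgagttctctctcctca
Hist1h2ac promoter: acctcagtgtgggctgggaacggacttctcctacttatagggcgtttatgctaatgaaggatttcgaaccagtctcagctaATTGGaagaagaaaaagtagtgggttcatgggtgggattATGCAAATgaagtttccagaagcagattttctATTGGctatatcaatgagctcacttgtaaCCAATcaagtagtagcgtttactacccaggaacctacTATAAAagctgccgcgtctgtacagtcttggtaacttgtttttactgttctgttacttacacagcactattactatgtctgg
Hist1h2bh promoter: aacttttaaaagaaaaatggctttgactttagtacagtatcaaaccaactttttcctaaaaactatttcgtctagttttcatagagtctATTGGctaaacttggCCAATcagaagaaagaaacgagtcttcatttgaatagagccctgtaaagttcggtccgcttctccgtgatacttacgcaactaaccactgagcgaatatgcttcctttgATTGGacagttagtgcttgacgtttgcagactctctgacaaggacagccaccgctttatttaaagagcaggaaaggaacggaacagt
Hist1h1c promoter: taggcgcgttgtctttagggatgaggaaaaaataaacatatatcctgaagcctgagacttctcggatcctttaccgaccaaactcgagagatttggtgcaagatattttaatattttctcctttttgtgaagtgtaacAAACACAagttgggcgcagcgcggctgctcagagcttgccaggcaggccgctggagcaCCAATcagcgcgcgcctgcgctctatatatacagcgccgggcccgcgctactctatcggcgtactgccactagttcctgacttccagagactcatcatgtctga

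Promoters were matched for 62 of 67 members. The TATA box was in 35 of them (56.5%), against 13.6% of all 32851 promoters of this length, and the CCAAT box in 53 (85.5%), against 37.4%. All H1, H2A, H2B and H3 promoters had the CCAAT box, but only 3 of 12 H4 promoters (25%). The octamer was in 7 of 18 H2A and 7 of 16 H2B promoters and in 0 of the H1, H3 and H4 promoters, against 1.74% of all. The H1 box was in 5 of 6 H1 promoters, Hist1h1e and Hist1h1c among them, against 7.18% of all. It was also in 2 of 18 H2A and 2 of 16 H2B promoters, and in 0 of the H3 and H4 promoters. Of the 3 genes higher in all transformed libraries, Hist1h2ac has the octamer and Hist1h1e has the H1 box. All 3 have the CCAAT box, as do all matched promoters of their classes. These are matches of letters, not measured binding.

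Hist1h1c (chromosome 13, 23738808 to 23740367, plus strand), the linker histone with the most counts, was the only tested member with a log2 fold change below 0. It stood at 9.95, 8.96 and 23.8 CPM in RasG12V cells, against 17.4, 15.9 and 19.1 CPM in untransformed cells. RasG12V replicate 3 was above all untransformed libraries and replicates 1 and 2 below them. The test made no call (log2 fold change -0.29, SE 0.29, adjusted p = 0.539, edgeR). Hist1h1c fell without both replicates 3 (-0.83, SE 0.15, adjusted p = 0.000139) and without RasG12V replicate 3 alone (-0.87, adjusted p = 0.000650). The 6 knockout libraries, at 11.7, 11.4 and 11.1 CPM in Cdk8 knockout cells and 10.7, 7.64 and 11.3 CPM in Cdk19 knockout cells, lay below the untransformed range too.

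**Figure D4:**
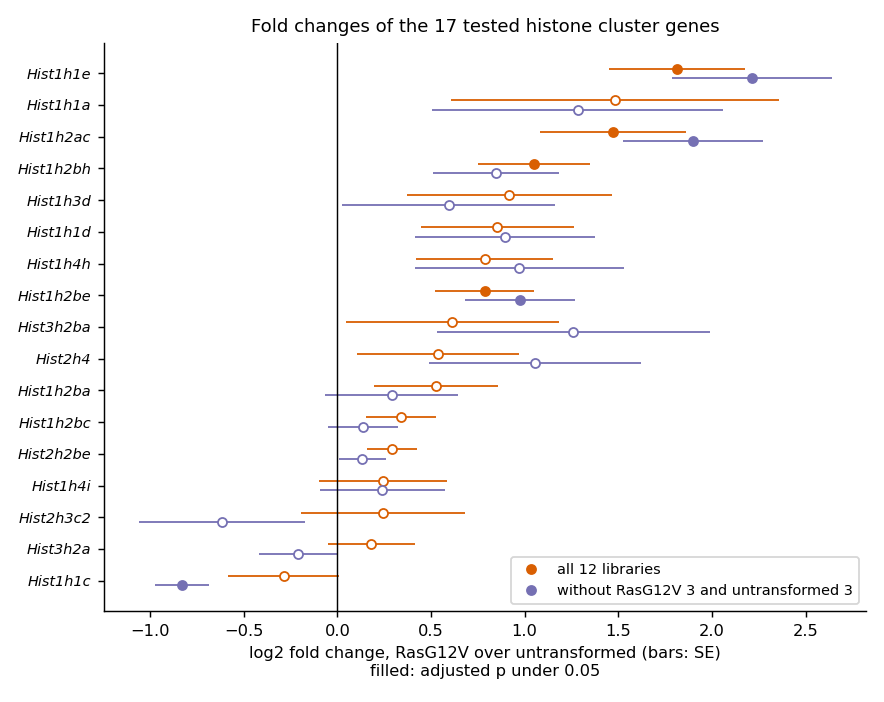
Log2 fold change of RasG12V over untransformed cells for the 17 tested members, with SE bars, from all 12 libraries (orange) and without RasG12V replicate 3 and untransformed replicate 3 (purple); filled points passed an adjusted p of 0.05 in edgeR. Points run between -0.29 for Hist1h1c and 1.81 for Hist1h1e with all libraries, and Hist1h1c alone is called lower without the 2 libraries.

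The other H1, H2A and H2B genes gave no call. Hist2h2be (chromosome 3, 96221119 to 96223738, plus strand), an H2B gene with no stem-loop in its annotated transcript, stood at 11.3, 11.2 and 14.9 CPM in RasG12V cells, against 9.19, 11.1 and 10.3 CPM in untransformed cells (log2 fold change 0.29, SE 0.13, adjusted p = 0.137, edgeR). Hist3h2a, which overlaps Trim17 on its strand, stood at 3.36 ± 0.706 CPM in RasG12V cells and 2.98 ± 0.745 CPM in untransformed cells (SD, n = 3 each). Its log2 fold change was 0.18, and -0.21 without both replicates 3. Hist1h1d, a linker histone, stood at 1.64, 0.491 and 1.39 CPM in RasG12V cells, against 0.462, 0.680 and 0.805 CPM in untransformed cells, with RasG12V replicate 2 low (log2 fold change 0.85, SE 0.41, adjusted p = 0.157, edgeR). It was called without RasG12V replicate 2 (1.22, adjusted p = 0.0263).

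The H3 and H4 genes were low and gave no call either. Hist2h3c2 and Hist1h3d, the H3 members of highest mean, stood at 0.472 ± 0.219 and 0.370 ± 0.0599 CPM in RasG12V cells and at 0.411 ± 0.203 and 0.194 ± 0.126 CPM in untransformed cells (SD, n = 3 each). Hist2h3c2 is only 38.4% unique at 100 bases, the lowest of the tested members. The leading H4 genes, Hist1h4i and Hist2h4, stood at 2.04 ± 0.883 and 0.396 ± 0.0597 CPM in RasG12V cells and at 1.72 ± 0.613 and 0.267 ± 0.171 CPM in untransformed cells (SD, n = 3 each). At the edge of the filter, Hist1h1a passed with 105 counts over 12 libraries and Hist1h4h with 110, while Hist1h1b with 73 and Hist1h4j with 71 did not.

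Histones of the male germ line are also in the clusters. Hist1h2ba, a testis H2B, stood at 1.20 ± 0.432 CPM in RasG12V cells and 0.836 ± 0.277 CPM in untransformed cells (SD, n = 3 each; log2 fold change 0.53, SE 0.33, adjusted p = 0.288, edgeR). Hist1h1t, the testis H1, had 18 counts in all and Hist1h2aa, a testis H2A, 17, and neither was tested. The germ cell markers Ddx4, Dazl, Tnp1 and Prm1 summed to at most 0.219 CPM in any library.

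The gene lists below are read against the shares of all genes given above, 11.9% higher and 11.5% lower, and 19.0% and 21% without both replicates 3. Of 30 genes of histone mRNA transcription and 3′ processing, 3 rose and 0 fell with RasG12V, and 6 rose and 2 fell without both replicates 3, with the first count near the share over all genes. The 3 were Cpsf3, the nuclease that cuts histone pre-mRNA, Tut7, which adds U to decaying histone mRNA, and Wdr33, a reader of the poly(A) signal. Their log2 fold changes were 0.24, 0.24 and 0.18, with adjusted p of 0.0313, 0.0324 and 0.0468 (edgeR). The list's median was -0.029. Slbp stood at 81.5, 72.3 and 42.8 CPM in RasG12V cells, against 78.3, 86.7 and 84.2 CPM in untransformed cells, where RasG12V replicate 3 was the low one (log2 fold change -0.34, SE 0.18, adjusted p = 0.189). Npat stood at 43.8, 48.9 and 34 CPM in RasG12V cells, against 45, 47.3 and 45.5 CPM in untransformed cells (log2 fold change -0.12, SE 0.11, adjusted p = 0.486).

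Of 26 chaperone and deposition genes 0 rose and 4 fell with RasG12V, and 5 rose and 5 fell without both replicates 3, all near the shares over all genes except the count of 0. The 4 were Ubn1, a subunit of the HIRA deposition complex, at a log2 fold change of -0.30, Tonsl, a reader of newly placed histones on replicated DNA, at -0.75, Asf1a, a chaperone of H3 and H4, at -0.26, and Cdan1, which binds Asf1 in human cells, at -0.45. Their adjusted p were 0.0104, 0.0155, 0.0290 and 0.0482 (edgeR). Of 16 variants outside the clusters 11 were tested, 0 rose and 1 fell, with 1 and 5 without both replicates 3. The gene that fell, H2afv, an H2A variant, stood at 28.5 ± 4.70 CPM in RasG12V cells and 45.6 ± 7.93 CPM in untransformed cells (SD, n = 3 each; log2 fold change -0.68, SE 0.14, adjusted p = 0.00385, edgeR). The variants' median log2 fold change was -0.28. It cannot be set against the 0.61 of the tested cluster members, whose choice by the filter favoured values above 0.

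Several genes of DNA replication fell. Of 33 genes of replication and E2F 0 rose and 10 fell with RasG12V, with a median log2 fold change of -0.36. Cdt1, which licenses origins, stood at 31 ± 5.51 CPM in RasG12V cells and 47.3 ± 1.48 CPM in untransformed cells (SD, n = 3 each; log2 fold change -0.61, SE 0.13, adjusted p = 0.00462, edgeR). Lig1, a DNA ligase, stood at 71.9 ± 20.4 CPM in RasG12V cells and 117 ± 12.7 CPM in untransformed cells (log2 fold change -0.70, SE 0.17, adjusted p = 0.00940, edgeR). Pcna and Mcm6, a subunit of the replicative helicase, fell too, at -0.54 and -0.68 (adjusted p = 0.0121 and 0.0123). Without both replicates 3, 0 rose and 20 fell, and the median log2 fold change of the 33 genes was smaller, at -0.25. Of 20 genes of G2 and mitosis 0 rose and 1 fell, the kinase gene Aurkb, at -0.39 (adjusted p = 0.0486, edgeR), with 3 and 3 without both replicates 3.

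The library that stood apart differed in these genes as well. The 33 replication genes summed to 4218, 4174 and 2076 CPM in RasG12V cells, against 4819, 5061 and 3848 CPM in untransformed cells. RasG12V replicate 3 had the lowest sum of the 12 libraries and the highest Hist1h1c, while its Hist1h2ac was the lowest of the 9 transformed libraries. The part of this difference in the values of the histone genes was not tested beyond leaving the library out.

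**Figure D5:**
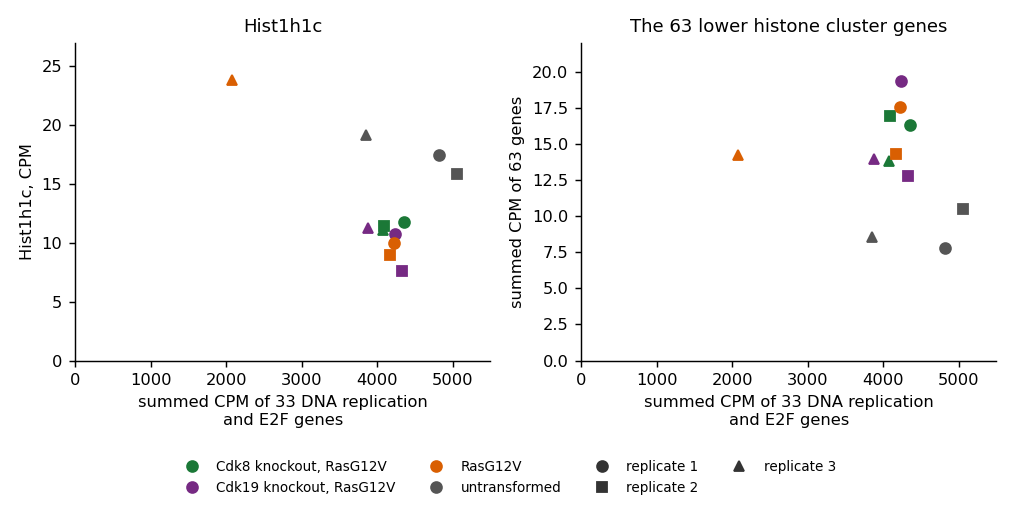
Summed CPM of 33 DNA replication and E2F genes (horizontal) against Hist1h1c in CPM (left) and the summed CPM of the 63 histone cluster genes below the leading 4 (right), 1 point per library. RasG12V replicate 3 lies alone at 2076 CPM of replication genes with Hist1h1c at 23.8 CPM, while the untransformed libraries have the lowest values in the right panel, at most 10.5 CPM.

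The comparisons with the knockouts ask what loss of either kinase changes in transformed cells. In Cdk8 knockout against RasG12V cells, 0 of 17 tested members rose and 0 fell in edgeR, as for all genes (0% higher and 0% lower), and 1 member, Hist2h2be, had an unadjusted p under 0.05. In Cdk19 knockout against RasG12V cells, 0 rose and 0 fell, beside 0.00700% of genes higher and 0.00700% lower, and 1 member, Hist1h2bc, had an unadjusted p under 0.05. DESeq2 and limma-voom called 0 members in both. These 2 comparisons share the RasG12V libraries, and a p that misses the threshold does not show that levels were alike.

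Hist2h2be stood at 8.14, 9.79 and 9.37 CPM in Cdk8 knockout cells, against 11.3, 11.2 and 14.9 CPM in RasG12V cells, without overlap (log2 fold change -0.45, SE 0.13, adjusted p = 0.661, edgeR). In Cdk19 knockout cells it stood at 12.9, 12.5 and 12 CPM, within the RasG12V range (log2 fold change 0.0015, SE 0.13, adjusted p = 0.999). Hist1h2bc stood at 7.71, 8.06 and 6.94 CPM in Cdk8 knockout cells and 5.08, 5.98 and 8.17 CPM in Cdk19 knockout cells, against 8.89, 6.91 and 9.92 CPM in RasG12V cells, and the groups overlap. It had a log2 fold change of -0.18 with Cdk8 lost (adjusted p = 0.911) and of -0.42 with Cdk19 lost (adjusted p = 0.650). For Hist1h1c these were -0.32 and -0.53, both uncalled, and 0.28 and 0.068 without both replicates 3.

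The 4 members that rose with RasG12V gave no call in the knockouts. Hist1h1e stood at 1.16 ± 0.0839 CPM in Cdk8 knockout cells, 1.51 ± 0.590 CPM in Cdk19 knockout cells and 1.41 ± 0.138 CPM in RasG12V cells. Hist1h2ac stood at 1.15 ± 0.167 CPM in Cdk8 knockout cells, 0.987 ± 0.0985 CPM in Cdk19 knockout cells and 0.932 ± 0.459 CPM in RasG12V cells. Hist1h2bh stood at 1.40 ± 0.273 CPM in Cdk8 knockout cells, 1.38 ± 0.400 CPM in Cdk19 knockout cells and 1.76 ± 0.487 CPM in RasG12V cells. Hist1h2be stood at 2.22 ± 0.211 CPM in Cdk8 knockout cells, 1.72 ± 0.389 CPM in Cdk19 knockout cells and 1.71 ± 0.221 CPM in RasG12V cells (SD, n = 3 each). Their log2 fold changes against RasG12V lay between -0.35 and 0.37. In both comparisons 0 genes of the processing, chaperone, variant, replication and mitosis lists were called, and without both replicates 3 the variant H1f0 was called higher in Cdk19 knockout cells (0.56, adjusted p = 0.000203).

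Set against each other, the knockouts showed 0 members higher and 0 lower in Cdk8 knockout than in Cdk19 knockout cells, beside 0.0770% of genes higher and 0.0280% lower (edgeR). Hist1h4h and Hist2h2be had an unadjusted p under 0.05, and DESeq2 and limma-voom called 0. Hist1h4h, the tested H4 gene that ends near its stem-loop, stood at 0.425, 0.488 and 0.396 CPM in Cdk8 knockout cells, against 0.176, 0.276 and 0.167 CPM in Cdk19 knockout cells, without overlap (log2 fold change 1.07, SE 0.35, adjusted p = 0.476). These levels rest on 5 to 18 counts per library. Hist2h2be, with the library values given above, did not overlap between the knockouts, at 9.10 ± 0.860 CPM in Cdk8 knockout cells and 12.5 ± 0.416 CPM in Cdk19 knockout cells (SD, n = 3 each; log2 fold change -0.45, SE 0.13, adjusted p = 0.355). Without both replicates 3, which are in neither group and enter through the shared spread, it was called lower (-0.45, SE 0.10, adjusted p = 0.0113), where 1.72% of genes were lower.

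H1f0, the H1 variant outside the clusters, stood at 453, 480.5 and 477 CPM in Cdk8 knockout cells, against 839.6, 735 and 774 CPM in Cdk19 knockout cells, without overlap. The log2 fold change (-0.74, SE 0.13, adjusted p = 0.0621, edgeR) was not called, and it was called in 7 of the alternatives. In RasG12V cells H1f0 stood at 520.3, 549 and 768 CPM and in untransformed cells at 652, 591 and 682 CPM.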

How the data were processed

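Per the submitters' processing notes, FastQC was run and reads were aligned with STAR 2.6.0a to GRCm38.p6. The deposited values are read counts per Ensembl gene, unstranded and by strand, 1 table per library. The reverse-strand counts were used, since they held 24.7 to 28.9 times the forward-strand reads. Rows that name no gene stayed out of all totals: multimapping reads (23% to 26.3% of reads), reads with no feature (4.31% to 5.85%), ambiguous reads (0.963% to 1.04%) and unmapped reads (2.1% to 3.34%). Of 54146 identifiers 54079 matched GENCODE M21.

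All 12 libraries entered 1 edgeR 4.0.16 fit in R 4.3.3 (filterByExpr by group, TMM, robust quasi-likelihood F test, no block), with Benjamini-Hochberg adjustment over 14283 genes and a threshold of 0.05. SE is the log2 fold change over the square root of F. On counts simulated for each of the 4 comparisons, 94 to 100 of 100 genes changed by 2 on the log2 scale and 79 to 86 of 100 changed by 1 were recovered. The simulation gave every gene the same spread, drew changed genes from all genes tested and held no library that stood apart. These rates therefore do not apply to the low histone genes. Intervals and floors cover counting error only. Alternatives were RLE and upper quartile scaling, no filter, 1 CPM in 3 libraries, DESeq2 1.42.0, limma-voom (limma 3.58.1), unstranded counts, only the 2 groups compared, a replicate block, leaving out RasG12V replicate 3 and untransformed replicate 3, and leaving out each library.

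The members, gene lists, alternatives and named-gene rule were chosen with earlier results of these data known. The rule named up to 10 called members per comparison, the 2 members of highest mean CPM per class, testis histones, up to 4 genes per list, Slbp, Npat and members at the filter's edge. Rrm2, Pcna, Rn7sk, Terc and Rmrp, the uncalled Hist1h1d, Hist1h4h, Hist1h1b and Hist4h4, and H1f0 and H3f3b were singled out after their values were seen. Ars2 and Codanin1 matched no symbol. Figures were drawn with matplotlib 3.10.9.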

Additional observations from a re-analysis of the deposited data

Results flagged for a closer look

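Reads on the forward strand, which the comparisons do not use, were few for the histone genes, 443 against 17739 on the reverse strand, and summed to 48, 55 and 41 in Cdk8 knockout, 37, 28 and 50 in Cdk19 knockout and 44, 33 and 46 in RasG12V libraries, against 16, 26 and 19 in untransformed ones. The 2 members below are those with a group mean of at least 10 forward-strand counts and all 3 libraries of that group above all untransformed ones in CPM, and other members add to the difference in the sums. At Hist1h1d, forward-strand reads averaged 13.0 in the Cdk8 knockout (15, 12 and 12 counts) and 10.0 in the Cdk19 knockout (9, 6 and 15 counts), against 2.33 in untransformed cells (1, 2 and 4 counts). Its reverse-strand counts averaged 39.0 and 31.3 in those knockouts, against 20.7 in untransformed cells. At Hist2h2ac, forward-strand reads averaged 13.3 in RasG12V cells (14, 15 and 11 counts), against 7.67 in untransformed cells (8, 9 and 6 counts), more than its reverse-strand mean of 2.33 in RasG12V cells. An annotated gene on the other strand, Gm44492, overlaps Hist2h2ac, and none overlaps the exons of Hist1h1d. Whether these reads come from a gene on the other strand was not tested.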

How the results depend on the processing

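In RasG12V against untransformed cells the count of members higher was 4, and 1 with only the 2 groups compared, where 13 members were tested. It lay between 2 and 4 when 1 library was left out, with 2 without untransformed replicate 1 or RasG12V replicate 1. The count lower was 0, and 1 (Hist1h1c) without both replicates 3, and between 0 and 1 with 1 library left out. Between the knockouts the count lower was 0, and 1 (Hist2h2be) with only the 2 groups compared and 1 without both replicates 3. The counts against RasG12V were 0 in both knockouts under every alternative run. The cause was not tested. Numbers of replicates did not pair samples, as correlations of same-numbered samples were mixed in sign, not every library correlated best with its own number and no label ties them, and with a replicate block the count higher with RasG12V was 4, the count lower 0 and the knockout counts 0. Summed histone CPM moved by less than 1 SD with RLE scaling or unstranded counts.

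Among named genes, 907 values stayed on their side of the threshold, 88 lost and 14 gained a call and 16 changed sign, all uncalled. In RasG12V against untransformed cells without both replicates 3, Hist3h2a was -0.21 and Hist2h3c2 -0.62. With 1 library left out, Hist3h2a lay between -0.0076 and 0.34, Hist1h4i between -0.15 and 0.57, Hist2h3c2 between -0.21 and 0.54 and Npat between -0.23 and 0.027. In Cdk8 knockout against RasG12V cells Hist1h1c was 0.28 without both replicates 3 and lay between -0.56 and 0.28 with 1 library left out. In Cdk19 knockout against RasG12V cells it was 0.068, and between -0.78 and 0.064. There Hist2h2be was -0.0021 with no filter, and between -0.068 and 0.15 with 1 library left out, and Hist1h1e between -0.27 and 0.28. The 50 members that were not tested had under 100 counts each over 12 libraries, and 27 of them were under 50% unique at 100 bases, so depth and shared sequence cannot be told apart there.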
